A study of Astyanax mexicanus with 78 samples.

Results

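Gut transcriptomes of aged and young surface fish were compared in *Astyanax mexicanus*, the Mexican tetra. The species has sighted populations in rivers and populations without eyes in caves. The libraries were chosen by their labels, 3 from aged and 4 from young surface guts, out of 78 libraries from 5 tissues, 2 populations and both ages. Aged surface fish were 7 to 8 years old and young surface fish about 1 year old, and no treatment or genotype other than age class separated them by label. The tissue was labelled gut with no segment named, and messenger RNA was selected by its poly-A tail before sequencing. The study profiled tissues of both age classes to follow long-term effects of DNA damage and sleep loss, and surface fish are its form with normal sleep. Guts of Pachón cavefish, the cave morph of the labels, of the same age classes, 4 aged and 4 young, and the other 4 tissues of surface fish were used only to set the values beside them. The labels do not say whether aged and young fish came from 1 stock, or whether tissues with the same number came from the same fish. The methods of the study say that several fish of each age and population group were dissected, a number above that of the aged gut libraries here, but the labels tie no library to a fish. A p-value therefore measures only the spread between these libraries, which may in part be technical. A difference of stock between the age classes and a difference of age cannot be told apart.

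The intestinal lining is a renewing epithelium. Most of its cells are enterocytes, which carry a brush border of villin-based microvilli, take up peptides, sugars and fats through transporters, and pass fat on as lipoproteins with the help of the microsomal triglyceride transfer protein. They burn part of the fat in mitochondria and shorten the longest chains in peroxisomes. Around the epithelium lie smooth muscle, connective tissue, nerves and many immune cells. In a whole gut, fewer cells of a type and less RNA per cell cannot be told apart.

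Total counts were 12535415, 14445324 and 11856701 in aged guts 5, 6 and 7, against 20118504, 12370741, 12235768 and 9239781 in young guts 1 to 4. Between 11679 and 12831 genes had at least 10 counts in a library, and the most counted gene (ENSAMXG00000007189) took from 3.68% to 18.8% of a library. Genes enriched in the gut took 29.0%, 34.5% and 52.6% of the counts of the aged guts and from 37.0% to 48.3% in the young guts. Of the markers of enterocytes, 14 had a name in the sources used here and all 14 passed the filter on low counts, fabp2, vil1 and the peptide transporters slc15a1a and slc15a1b among them. Markers of exocrine pancreas, endocrine pancreas, red blood cells and germ cells had no named gene and could not be measured. Gene symbols were known for 2077 of the 19076 genes, from a table of the UV experiment of the study. Counts of list members therefore rest on a selected part of each list. Named members were 10 of 75 symbols for mitochondrial respiration, 14 of 51 for oxidative stress and redox and 11 of 45 for xenobiotic metabolism. Of the named genes tested 12.5% passed, against 9.45% of those without a name. Of the calls described below, 165 higher and 63 lower genes had a name.

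Of 14244 genes tested with DESeq2, 1402 differed between aged and young surface guts at an adjusted p under 0.05, which is 9.84% of them. Of these, 931 (6.54%) were higher and 471 (3.31%) were lower in aged guts, so that 66.4% of the calls were higher, while 47.7% of all genes tested had a positive fold change. The quasi-likelihood test of edgeR, which was stricter, called 256 of 12620 genes (2.03%), 210 higher (1.66%) and 46 lower (0.365%), and 255 of these were among the 1402. In counts simulated for this comparison, 200 of 19076 genes were given a change. There 31.9% of the 207 DESeq2 calls were genes simulated without a change, against 3.85% of 104 edgeR calls. An adjusted p under 0.05 aims to keep this share under 0.05, which DESeq2 exceeded in this simulation. The size of the share depends on how many genes change, so that 31.9% cannot be carried over to the 1402 calls. A share under 0.05 cannot be assumed for them either. The median size of a call was 1.63 on the log2 scale, against 0.55 over all genes tested, and stayed at 1.63 when genes without a count in 1 age class were set to the limit that 3 counts allow. The median size was 1.57 among the genes higher and 1.84 among those lower in aged guts. Changes of at least 4 on the log2 scale numbered 66 higher and 71 lower. Of 247 tested genes with at most 3 reads in every aged gut 53 were called lower. Of 65 tested genes with at most 3 reads in every young gut 28 were called higher. In 1200 of the calls the values of the age classes did not overlap, 795 of them higher and 405 lower. Such separation was found in 18.4% of all genes tested, 9.86% with higher and 8.54% with lower values in aged guts. At an unadjusted p under 0.05 DESeq2 had 3266 of 17676 genes (18.5%). The number of calls fell to 692 without aged gut 6, to 815 without young gut 4 and to 933 without young gut 3, and it was 1830 without aged gut 7. In each of the 7 fits without 1 library 501 genes remained called, 369 of them higher in aged guts.

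**Figure D1:**
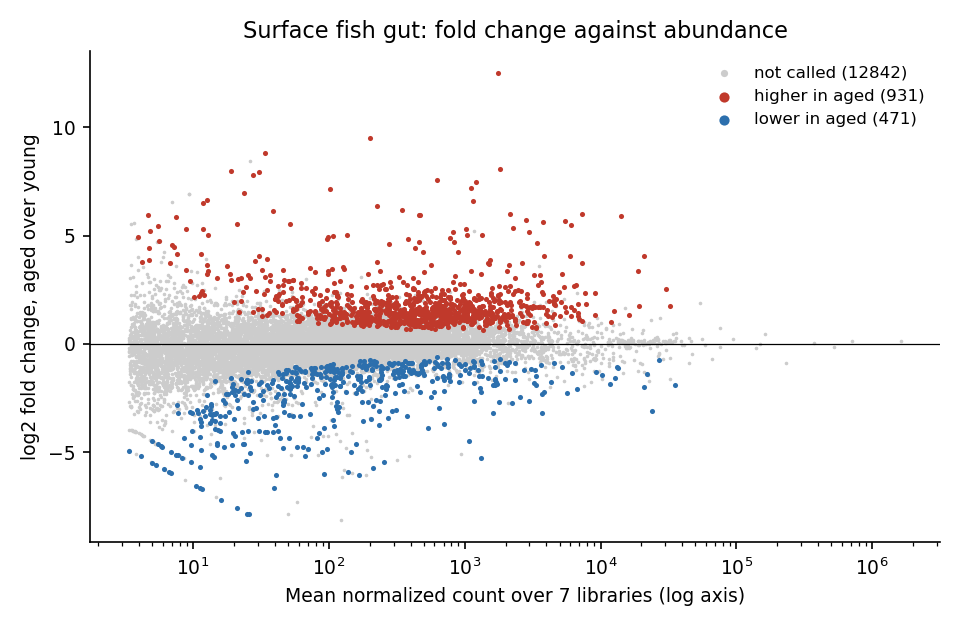
Each point is 1 of the 14244 genes tested in surface gut, with the mean normalized count over the 7 libraries on a log axis and the log2 fold change of aged over young on the vertical axis. The 931 genes called higher in aged guts lie mostly to the right of the 471 called lower, which reach into the low counts.

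The 3 aged guts did not contribute alike. For 631 of the 931 genes that were higher in aged guts, 67.8%, the lowest aged value was that of gut 7, against 44.6% of all tested genes with a positive fold change. The median distance of these genes from the young mean was 1.49, 1.82 and 1.02 on the log2 scale in aged guts 5, 6 and 7, and between -0.07 and 0.16 in the young guts. Together the 931 genes took 17.6%, 16.02% and 6.79% of the counts in the aged guts, against 3.98%, 4.95%, 3.37% and 3.32% in the young guts. The 471 lower genes took 1.91%, 1.199% and 1.15% in the aged guts, against 5.405%, 4.76%, 4.09% and 3.71% in the young guts. Both sums follow from how the genes were chosen, and they show how much of each library the calls make up.

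The share and the direction of the DESeq2 calls differed between classes of abundance. Among genes with a mean of 1000 to 10000 normalized counts 26.1% of 1163 were called, 245 of them higher and 58 lower in aged guts. In the class of 100 to 1000 counts the share was 12.3% of 5896, with 533 higher and 190 lower. Of the 5307 genes with 10 to 100 counts 5.99% were called, 128 higher and 190 lower. In the most counted class, at 10000 or more, 9 genes were higher and 10 lower of 182. The DESeq2 calls were thus mostly higher between 100 and 10000 counts and more often lower between 10 and 100. edgeR called 6.52% of the class of 1000 to 10000, 71 of 77 higher, and 0.718% of the class of 10 to 100, 21 of 37 higher, so that the lower majority there was not found with edgeR. Counts were not divided by gene length, so that a class holds both long genes and highly expressed ones, and a test of counts has more power where there are more reads.

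Tissue specificity was read from young cavefish libraries, which the comparison does not use. A gene was called enriched in a tissue when its median there was at least 5 CPM, a count scaled to the library total, and 4 times that of each other tissue, and broad when all 5 medians were at least 1 CPM. Broad genes made up 879 of the 1402 calls: 12.1% of 7276 broad genes were called, 653 higher and 226 lower in aged guts. Gut-enriched genes were called at a similar share, 12.2% of 540, but with 37 higher and 29 lower. Of the gut-enriched genes higher in aged guts, bin2a, a membrane-bending BAR domain protein, was chosen after its values were seen. It had 2480, 1632 and 1234 normalized counts in aged guts, against 351, 451, 267 and 369 in young guts, a log2 fold change of 2.31 ± 0.36 (SE, adjusted p = 4.79e-08). Muscle-enriched genes stood apart in direction, with 2 higher and 25 lower of 320 tested (7.81% lower), and their median log2 fold change was -1.04. Their summed share of counts was 0.262%, 0.240% and 0.227% in the aged guts, against 0.293%, 0.898%, 0.340% and 0.428% in the young guts, without overlap. The share of muscle-enriched genes called lower moved between 4.02% without aged gut 6 and 19.02% without young gut 1, and edgeR called 1 of 240. Of 3017 scarce genes, with no tissue median of 1 CPM, 495 were tested and 10.7% of these were called, 31 higher and 22 lower. With edgeR 13 of 210 were called. A scarce gene can pass the filter on low counts through the age class where it is high, so that no conclusion is drawn from this share. Liver-enriched genes were called at 5.78% of 277, and their summed share overlapped between the ages, at 2.16%, 0.972% and 1.14% in aged guts and 0.784% to 2.18% in young guts.

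**Figure D2:**
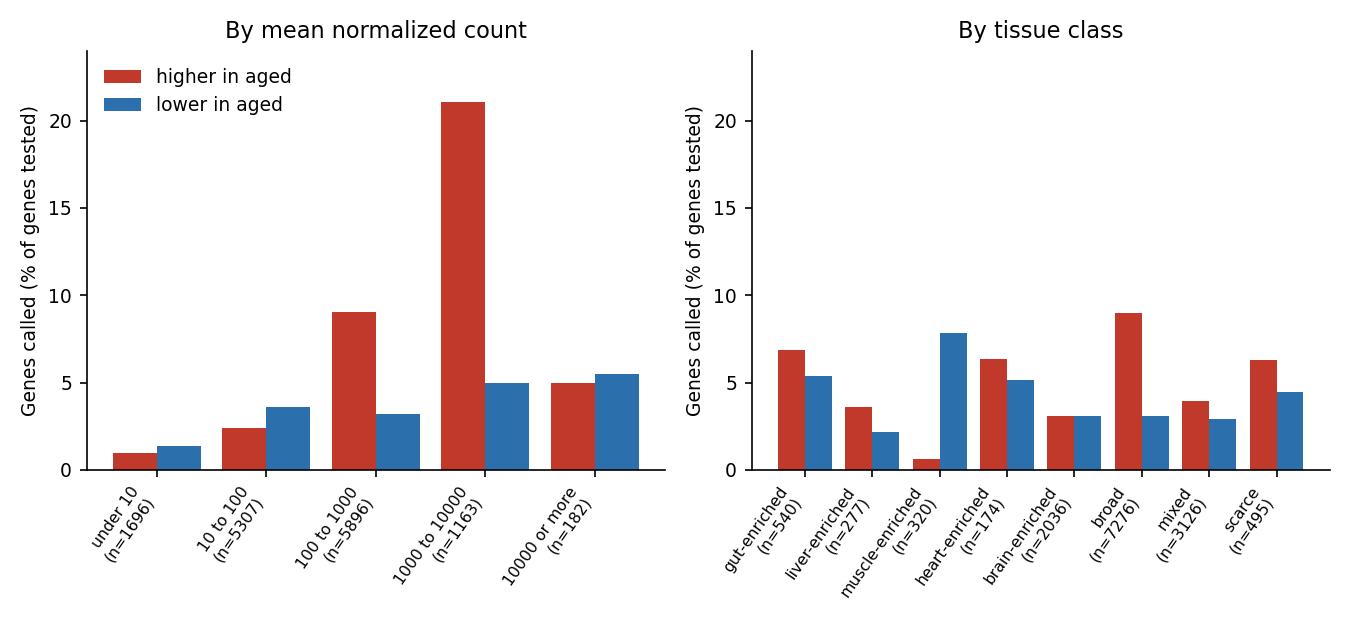
Bars give the percentage of tested genes called higher (red) and lower (blue) in aged than in young surface guts, by mean normalized count on the left and by tissue class from young cavefish libraries on the right, with the number of genes tested in parentheses. The class of 1000 to 10000 counts reaches 21.1% higher and broad genes 8.97% higher. Among the tissue classes, muscle-enriched genes are the one with mostly lower calls (7.81%).

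The respiratory chain in the inner mitochondrial membrane passes electrons to oxygen and drives ATP synthase. Of 10 named members of the mitochondrial respiration list 9 were higher in aged guts and none was lower, with a median log2 fold change of 1.51 against -0.04 over all genes tested. edgeR called 4 of the 9. Among all tested genes with a name 9.07% were higher and 3.46% lower in aged guts. By abundance, 9.04% of all tested genes were higher at 100 to 1000 counts, 21.1% at 1000 to 10000 and 4.95% at 10000 or more. The beta subunit of ATP synthase, atp5f1b, had 33660, 35934 and 25894 normalized counts in aged guts, against 9012, 10019, 10493 and 8546 in young guts, a log2 fold change of 1.74 ± 0.25 (SE, adjusted p = 1.05e-09). Its gamma subunit atp5f1c had 5493, 7432 and 5029 normalized counts in aged guts, against 1491, 1953, 2141 and 1708 in young guts, a log2 fold change of 1.71 ± 0.28 (SE, adjusted p = 3.46e-07). Every aged gut was above every young gut for both. In complex III, the core protein uqcrc1 had 3817, 6414 and 3167 normalized counts in aged guts, against 1053, 1276, 1132 and 1102 in young guts, a log2 fold change of 1.97 ± 0.33 (SE, adjusted p = 6.92e-07). Cytochrome c1, encoded by CYC1, had 1432, 3113 and 1639 normalized counts in aged guts, against 474, 490, 478 and 528 in young guts, a log2 fold change of 2.07 ± 0.36 (SE, adjusted p = 1.27e-06). Aged gut 6 was the highest library for both, and the 4 young guts lay close together. The remaining members called were atp5f1d, atp5pb, cox6a1, cox5ab and cox4i1, with log2 fold changes between 0.97 and 1.76. The call of cox6a1 was lost without aged gut 6 (adjusted p = 0.196), that of cox5ab without aged gut 6, young gut 2 or young gut 4 (up to 0.147), and that of cox4i1 without any library but aged gut 5 (up to 0.303). The cytochrome oxidase gene cox5aa did not pass, at 2036, 3291 and 2333 normalized counts in aged guts, against 1842, 1541, 2776 and 2062 in young guts (adjusted p = 0.643). Counting every named subunit of the respiratory chain by symbol, a family chosen after its values were seen, 12 of 16 were higher and none lower. Among the added ones were atp5fa1, the alpha subunit of ATP synthase, with 23544, 26866 and 23736 normalized counts in aged guts, against 8941, 9553, 10576 and 9567 in young guts, a log2 fold change of 1.36 ± 0.21 (SE, adjusted p = 1.9e-08), and the oxidase subunit COX5B, with 6579, 9866 and 6848 normalized counts in aged guts, against 1849, 2461, 2058 and 2032 in young guts, a log2 fold change of 1.89 ± 0.28 (SE, adjusted p = 5.91e-09). 

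Antioxidant enzymes rose in part. Of 14 named members of the oxidative stress and redox list 6 were higher in aged guts and none was lower, with a median of 1.12, and edgeR called 3. The share higher was 9.07% over all tested genes with a name and 21.1% over all genes of 1000 to 10000 counts. Peroxiredoxins reduce hydrogen peroxide. The cytosolic prdx1 had 2631, 8683 and 1327 normalized counts in aged guts, against 323, 639, 274 and 389 in young guts, a log2 fold change of 3.38 ± 0.63 (SE, adjusted p = 9.39e-06), with gut 6 far above the other aged guts. The mitochondrial prdx3 had 2104, 2571 and 2085 normalized counts in aged guts, against 716, 844, 864 and 728 in young guts, a log2 fold change of 1.52 ± 0.23 (SE, adjusted p = 3.75e-08), and its aged values lay close together. Superoxide dismutase sod1, which turns superoxide into peroxide, had 11058, 6355 and 4271 normalized counts in aged guts, against 1555, 1864, 1900 and 2116 in young guts, a log2 fold change of 1.96 ± 0.39 (SE, adjusted p = 3.5e-05). The glutathione transferase GSTP1 had 11551, 10874 and 7563 normalized counts in aged guts, against 2038, 3587, 2424 and 4094 in young guts, a log2 fold change of 1.72 ± 0.36 (SE, adjusted p = 0.000141); the selenium-dependent gpx1b and the thioredoxin reductase txnrd3 were called as well, with log2 fold changes of 1.17 and 1.78. Catalase, at 19576, 5066 and 3039 normalized counts in aged guts, against 15201, 4862, 6449 and 4617 in young guts, did not pass (adjusted p = 0.887), nor did gpx4a, at 39166, 8572 and 15925 normalized counts in aged guts, against 37646, 32265, 42460 and 26815 in young guts (adjusted p = 0.435). Aged gut 5 was the highest of all libraries for catalase, and for gpx4a aged guts 6 and 7 lay under every young gut while aged gut 5 did not.

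**Figure D3:**
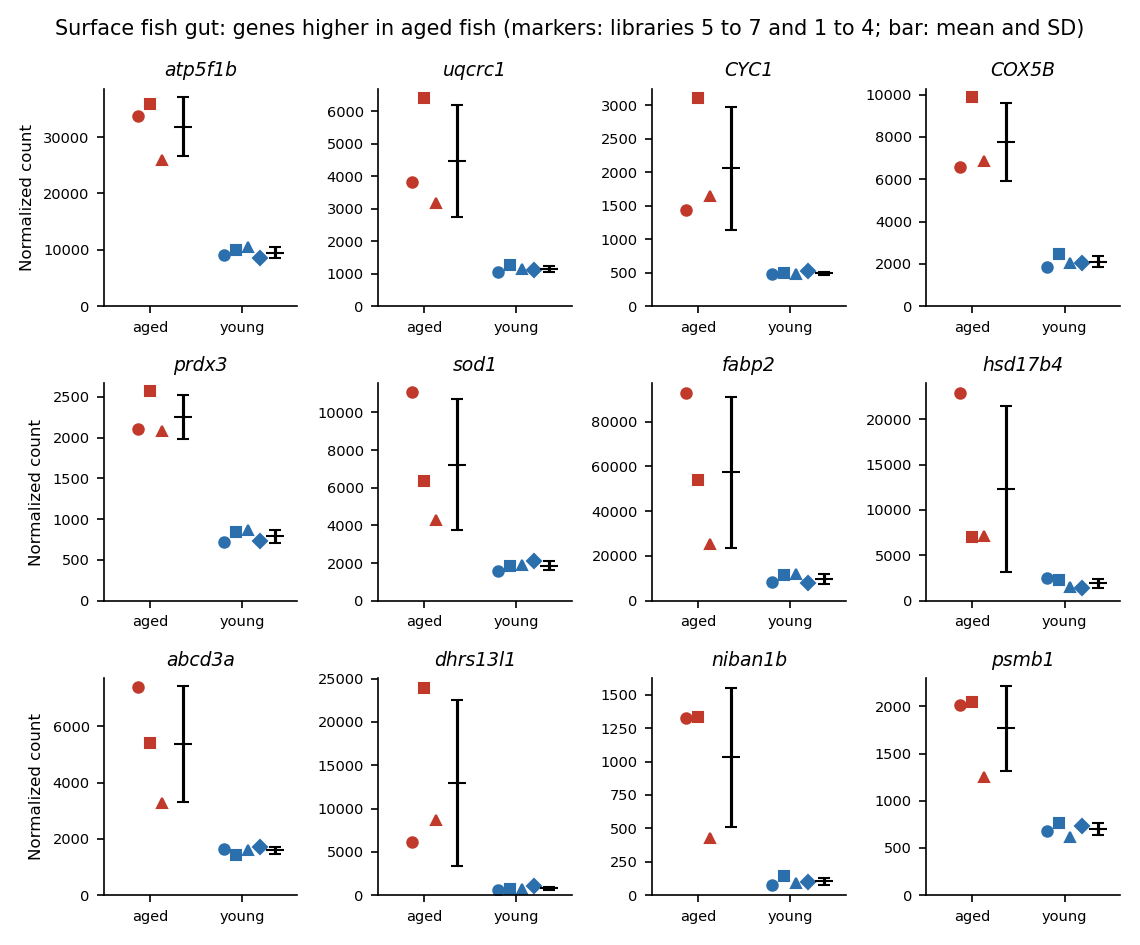
Normalized counts of 12 genes called higher in aged surface guts are plotted for aged libraries 5 to 7 (red, left) and young libraries 1 to 4 (blue, right), with mean and SD in black and a linear axis from 0. No young library reaches an aged one in any panel, and aged gut 7 is the lowest aged value for fabp2, sod1, abcd3a, niban1b and psmb1 among others.

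In the enterocyte list, 4 of 14 members were higher and 1 lower, and the median was -0.37. Over all tested genes with a name 9.07% were higher and 3.46% lower. The intestinal fatty acid binding protein fabp2, which carries fatty acids inside the enterocyte, had 92820, 54016 and 25487 normalized counts in aged guts, against 8146, 11479, 12008 and 7799 in young guts, a log2 fold change of 2.54 ± 0.47 (SE, adjusted p = 7.25e-06). The lipoprotein assembly gene mttp had 3955, 3907 and 861 normalized counts in aged guts, against 791, 746, 752 and 381 in young guts, a log2 fold change of 2.12 ± 0.55 (SE, adjusted p = 0.00326). Its call was lost without aged gut 6 (adjusted p = 0.0667). Villin, vil1, had 11600, 6525 and 2597 normalized counts in aged guts, against 3128, 1060, 498 and 880 in young guts, a log2 fold change of 2.31 ± 0.69 (SE, adjusted p = 0.0132), and here aged gut 7 lay below young gut 1. The lipoprotein gene apoa1a had 34440, 12070 and 3786 normalized counts in aged guts, against 3158, 2095, 6715 and 1289 in young guts, a log2 fold change of 2.34 ± 0.75 (SE, adjusted p = 0.0238), and young gut 3 lay above aged gut 7. Calls of vil1 and apoa1a were lost without any of 3 and of 5 libraries, at adjusted p up to 0.108 and 0.262. The aminopeptidase ANPEP was the lower member, with 18388, 6038 and 9494 normalized counts in aged guts, against 41069, 18185, 38594 and 21393 in young guts, a log2 fold change of -1.40 ± 0.50 (SE, adjusted p = 0.0487), and was lost without any of 5 libraries (adjusted p up to 0.262). The peptide transporter slc15a1b, at 46354, 8394 and 7640 normalized counts in aged guts, against 52375, 22629, 37488 and 9415 in young guts, did not pass (adjusted p = 0.730). The sugar transporter slc5a1 had 13784, 9886 and 6495 normalized counts in aged guts, against 46190, 11053, 5886 and 7173 in young guts (adjusted p = 0.552). Both transporters were highest in young gut 1, and slc15a1b was nearly as high in aged gut 5. The same pair stood out for tmprss15, the enteropeptidase that activates trypsin in the upper intestine, at 831, 83.5 and 73.9 normalized counts in aged guts, against 797, 114, 201 and 10.5 in young guts (adjusted p = 0.937). The part of the gut that each library sampled was not stated, and its part in these results was not tested. 

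Peroxisomal genes are a family chosen after its values were seen: 8 of 9 named members were higher in aged guts and none was lower, with a median of 2.06, and edgeR called 2. The count was 5 without young gut 3, young gut 4 or aged gut 5, where acox3, phyh and decr2 lost their calls (adjusted p up to 0.157, 0.165 and 0.201). The bifunctional enzyme hsd17b4, the middle step of peroxisomal fat oxidation, had 22877, 6977 and 7135 normalized counts in aged guts, against 2464, 2273, 1554 and 1439 in young guts, a log2 fold change of 2.67 ± 0.51 (SE, adjusted p = 1.58e-05). The sterol carrier scp2a, whose long form is the peroxisomal thiolase for branched chains, had 13149, 4526 and 2449 normalized counts in aged guts, against 1381, 1082, 649 and 964 in young guts, a log2 fold change of 2.72 ± 0.57 (SE, adjusted p = 0.000141). The transporter abcd3a, which brings fatty acids into the peroxisome, had 7385, 5418 and 3271 normalized counts in aged guts, against 1644, 1433, 1592 and 1697 in young guts, a log2 fold change of 1.75 ± 0.34 (SE, adjusted p = 3.31e-05). In hsd17b4 and scp2a aged gut 5 was the highest by far, and in all 3 genes no young gut reached the lowest aged one. The other members called were acaa1, acox3, phyh, pex11a and decr2, at 1.35 to 2.43. The fatty acid list had 3 of 12 members higher (plin2, acaa1 and acox3), none lower and a median of 0.19. Set beside this list and the cholesterol list below, 9.07% of all tested genes with a name were higher and 3.46% lower. Of all genes with 1000 to 10000 counts 21.1% were higher, so that the count of the fatty acid list was near that share. The lipid droplet coat plin2 had 773, 3119 and 10200 normalized counts in aged guts, against 463, 561, 886 and 371 in young guts, a log2 fold change of 3.04 ± 0.72 (SE, adjusted p = 0.000943), with gut 7 the highest and gut 5 below young gut 3. cidec, which enlarges lipid droplets and was the 1 called gene of the adipocyte list, had 669, 503 and 1413 normalized counts in aged guts, against 136, 182, 233 and 216 in young guts, a log2 fold change of 2.17 ± 0.44 (SE, adjusted p = 7.72e-05). The other adipocyte markers PPARG, lpl and dgat2 did not pass, and the summed level of the list was 844, 318 and 240 CPM in aged guts and 589 to 2436 CPM in young guts. The acyl-CoA binding protein dbi had 18645, 9133 and 4147 normalized counts in aged guts, against 845, 1405, 990 and 1370 in young guts, a log2 fold change of 3.21 ± 0.51 (SE, adjusted p = 1.15e-07). In the cholesterol list ldlrb, a receptor for lipoprotein uptake, had 560, 1768 and 1377 normalized counts in aged guts, against 177, 305, 305 and 221 in young guts, a log2 fold change of 2.29 ± 0.46 (SE, adjusted p = 4.65e-05). hsd17b7 and sc5d, enzymes of sterol synthesis, were higher by 1.92 and 1.39, npc1, which moves cholesterol out of lysosomes, was lower at -0.92, and 3 of the 7 members did not pass. Without aged gut 5 these 3 calls were lost, at adjusted p up to 0.190 over the fits that lost them, and the list had 2 calls without young gut 1, young gut 3 or aged gut 6.

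Of all tested genes with a name, 9.07% were higher and 3.46% lower in aged guts. Of 10 tested members of the xenobiotic list 4 were higher and none lower, with a median of 1.06, and edgeR called 3. Both genes that carry the symbol gstt1b, theta-class glutathione transferases, were among them. The first, ENSAMXG00000035085, had 4845, 2610 and 1638 normalized counts in aged guts, against 484, 581, 439 and 542 in young guts, a log2 fold change of 2.57 ± 0.42 (SE, adjusted p = 1.63e-07), and the second, ENSAMXG00000033673, had 5886, 5065 and 3414 normalized counts in aged guts, against 1859, 1495, 1299 and 1333 in young guts, a log2 fold change of 1.68 ± 0.31 (SE, adjusted p = 9.39e-06). Reads of such near copies can be split between them, so that each value is uncertain. The glucuronosyltransferase ugt5a1 had 1158, 864 and 368 normalized counts in aged guts, against 150, 201, 75.1 and 108.1 in young guts, a log2 fold change of 2.57 ± 0.51 (SE, adjusted p = 3.46e-05). The enzyme that makes its sugar donor, ugdh, had 5450, 3521 and 923 normalized counts in aged guts, against 313, 264, 150 and 179 in young guts, a log2 fold change of 3.86 ± 0.58 (SE, adjusted p = 1.12e-08). cyp1a, at 1906, 778 and 1660 normalized counts in aged guts, against 665, 647, 946 and 371 in young guts, did not pass (adjusted p = 0.0904). All 6 named proteasome genes, a family chosen after its values were seen, were higher, with a median of 1.29, and edgeR called 1. Its catalytic-ring subunit psmb1 had 2017, 2044 and 1250 normalized counts in aged guts, against 682, 768, 617 and 734 in young guts, a log2 fold change of 1.34 ± 0.29 (SE, adjusted p = 0.000264). The call of psmc6 was lost without aged gut 6 (adjusted p = 0.0891), and that of psmc5 without any library but aged gut 7 (up to 0.262). In the family of endoplasmic reticulum translocation and N-glycosylation, chosen in the same way, 6 of 10 were higher and none lower, and edgeR called 3. The oligosaccharyltransferase subunit ddost had 3160, 4424 and 2027 normalized counts in aged guts, against 711, 867, 541 and 687 in young guts, a log2 fold change of 2.19 ± 0.36 (SE, adjusted p = 3.81e-07). Its partner dad1 had 934, 1445 and 782 normalized counts in aged guts, against 252, 181, 126 and 222 in young guts, a log2 fold change of 2.43 ± 0.38 (SE, adjusted p = 6.16e-08). Ribosomal proteins, also chosen after their values were seen, were mostly not called: 1 of 34 was higher, and the median was 0.09. Most of them had 10000 or more counts, where 4.95% of all genes tested were higher, a share near theirs. The 1 called, rpl19 (ENSAMXG00000043666), had a mean of 204 counts and lost its call without any library but aged gut 5 (adjusted p up to 0.165).

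Further large changes among named genes with a mean of at least 50 counts fell outside these groups. dhrs13l1, a short-chain dehydrogenase, had 6157, 23907 and 8726 normalized counts in aged guts, against 617, 717, 675 and 1102 in young guts, a log2 fold change of 4.06 ± 0.51 (SE, adjusted p = 3.22e-12). niban1b had 1327, 1336 and 429 normalized counts in aged guts, against 78.4, 144, 94.8 and 96.1 in young guts, a log2 fold change of 3.32 ± 0.48 (SE, adjusted p = 2.16e-09); its mammalian counterpart is a stress-response gene. Glucokinase, gck, which phosphorylates glucose, had 1088, 652 and 236 normalized counts in aged guts, against 46.0, 96.5, 57.8 and 111 in young guts, a log2 fold change of 3.09 ± 0.57 (SE, adjusted p = 7.13e-06). acot19, an acyl-CoA thioesterase by name, had 2327, 2730 and 725 normalized counts in aged guts, against 341, 323, 186 and 282 in young guts, a log2 fold change of 2.77 ± 0.49 (SE, adjusted p = 3.54e-06). zgc:136472 had 5315, 8572 and 7763 normalized counts in aged guts, against 1029, 1038, 983 and 875 in young guts, a log2 fold change of 2.88 ± 0.28 (SE, adjusted p = 1.28e-21), the lowest adjusted p among the genes named here by a symbol. In all 5 genes every aged gut lay above every young gut, which the rule that named them requires. Among the most counted genes, ACTB, a cytoplasmic actin, and mdh1aa, a malate dehydrogenase, were higher by 1.52 and 1.02, and lost their calls without any of 2 and of 5 libraries (adjusted p up to 0.142 and 0.222).

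Among genes lower in aged guts were ubiquitin ligase subunits and adaptors, of which fbxo32 is known from fasting and wasting muscle of mammals. The ubiquitin ligase subunit fbxo32, also called atrogin-1, had 5.54, 4.49 and 11.2 normalized counts in aged guts, against 51.8, 129, 240 and 129 in young guts, a log2 fold change of -4.33 ± 0.66 (SE, adjusted p = 1.83e-08). It belongs to the muscle-enriched class, where 25 of 320 tested genes were lower and 2 higher. The adaptor klhl24a had 70.15, 25.1 and 80.8 normalized counts in aged guts, against 764, 147, 242 and 234 in young guts, a log2 fold change of -2.57 ± 0.65 (SE, adjusted p = 0.00246), and its paralog klhl24b had 237, 212 and 1698 normalized counts in aged guts, against 6101, 1824, 4256 and 3610 in young guts, a log2 fold change of -2.46 ± 0.74 (SE, adjusted p = 0.0145). For klhl24b aged gut 7 came within reach of young gut 2, and the call was lost without any of 4 libraries (adjusted p up to 0.110). Of all tested genes with a name 3.46% were lower. In the family that holds fbxo32 and klhl24a, chosen after its values were seen, 5 of 6 were lower and none higher, and edgeR called 1. The count was 3 without young gut 1, young gut 3 or aged gut 6, and the transcription factor gene zbtb16a, lower at -1.88, lost its call in each of the 6 fits that left out a library other than aged gut 5 (adjusted p up to 0.231). The muscle-enriched klhl38b had 0, 0.898 and 5.58 normalized counts in aged guts, against 11.8, 30.7, 49.7 and 39.0 in young guts, a log2 fold change of -4.10 ± 0.98 (SE, adjusted p = 0.00111). trim63a, the other well-known ligase of muscle wasting and also muscle-enriched, did not pass. It had 0, 1.8 and 4.18 normalized counts in aged guts, against 8.84, 4.27, 16.2 and 27.0 in young guts (adjusted p = 0.0713). The growth hormone receptor ghrb, which relays growth hormone, had 772, 588 and 590 normalized counts in aged guts, against 3796, 1877, 1716 and 2346 in young guts, a log2 fold change of -1.91 ± 0.38 (SE, adjusted p = 3.51e-05). Its aged values lay close together, well under the lowest young gut. The kainate receptor subunit grik1b had 4.61, 3.59 and 2.79 normalized counts in aged guts, against 117, 11.95, 101 and 171 in young guts, a log2 fold change of -4.75 ± 0.87 (SE, adjusted p = 6.24e-06). Tropomodulin tmod1, which caps actin filaments, had 22.2, 19.7 and 34.8 normalized counts in aged guts, against 139, 107.6, 64.7 and 87.1 in young guts, a log2 fold change of -1.99 ± 0.45 (SE, adjusted p = 0.000438). SNORA74, a small nucleolar RNA, was lower at -1.90, but a poly-A selected library measures such RNA poorly and its copies can share reads. abca12, a lipid transporter, had 22.2, 43.1 and 23.7 normalized counts in aged guts, against 55.4, 87.9, 75.1 and 429 in young guts, a log2 fold change of -2.44 ± 0.75 (SE, adjusted p = 0.018), and its call was lost without young gut 4, aged gut 5 or aged gut 7 (adjusted p up to 0.117).

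The dicarboxylate transporter slc13a2 had 25764, 6086 and 9718 normalized counts in aged guts, against 82281, 30213, 64364 and 29246 in young guts, a log2 fold change of -1.89 ± 0.59 (SE, adjusted p = 0.0208). pcyt1bb, an enzyme of phosphatidylcholine synthesis, had 4987, 939 and 1077 normalized counts in aged guts, against 18281, 6279, 10297 and 5316 in young guts, a log2 fold change of -2.10 ± 0.68 (SE, adjusted p = 0.0257). The amino acid transporter slc43a2b had 6846, 2079 and 6600 normalized counts in aged guts, against 21649, 11628, 12052 and 11357 in young guts, a log2 fold change of -1.45 ± 0.49 (SE, adjusted p = 0.0353). Aged gut 6 was the lowest of all libraries for each of these, and each call was lost without any of 4, 4 and 5 libraries (adjusted p up to 0.155, 0.181 and 0.140). The chaperone hspa8, which folds proteins under normal conditions, had 17432, 22264 and 18727 normalized counts in aged guts, against 36212, 30254, 30915 and 33614 in young guts, a log2 fold change of -0.75 ± 0.23 (SE, adjusted p = 0.0149). It was lost without any library but aged gut 6, at adjusted p up to 0.142, although the age classes did not overlap. nsa2, a factor of ribosome assembly, had 8886, 6634 and 8933 normalized counts in aged guts, against 20183, 14004, 19586 and 16432 in young guts, a log2 fold change of -1.11 ± 0.27 (SE, adjusted p = 0.00172), and remained called in each of the 7 fits without 1 library. No call was made among the other 4 members of the heat shock list.

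**Figure D4:**
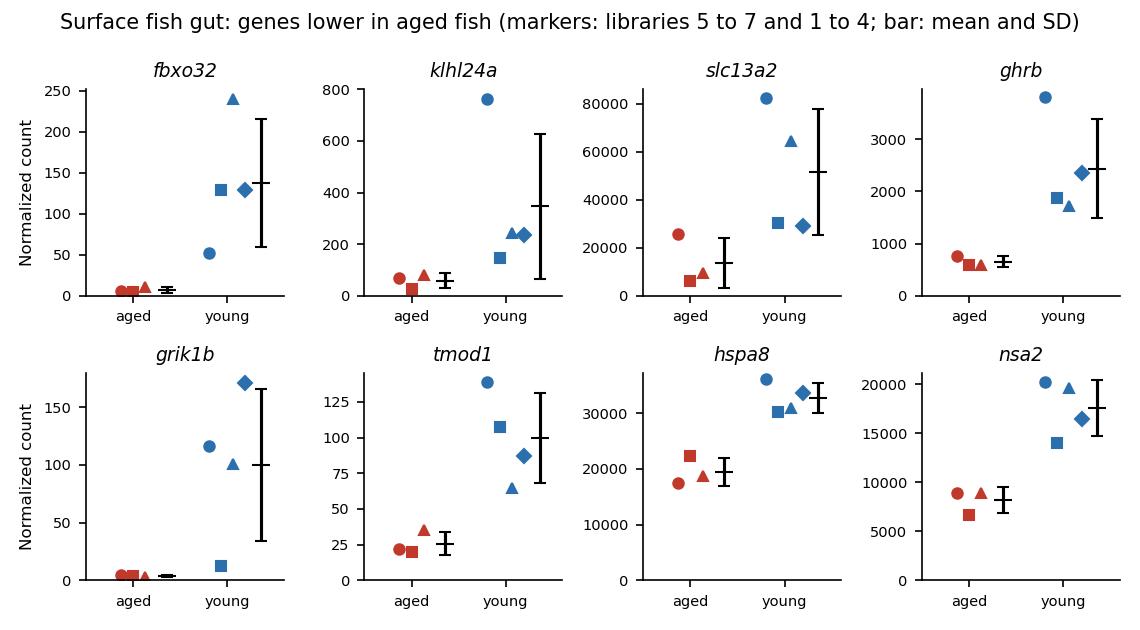
Normalized counts of 8 genes called lower in aged surface guts are plotted for aged libraries 5 to 7 (red, left) and young libraries 1 to 4 (blue, right), with mean and SD in black and a linear axis from 0. Aged values of fbxo32 stay at or under 11.2 and those of ghrb at or under 772, below every young gut.

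Markers of further cell types had few named members each. Of all tested genes with a name 12.5% were called, 9.07% higher and 3.46% lower. In the goblet list gcnt3, a mucin-type glycosyltransferase, was higher, with 426, 1346 and 1121 normalized counts in aged guts, against 96.6, 261, 218 and 126 in young guts, a log2 fold change of 2.46 ± 0.52 (SE, adjusted p = 0.00017). The other named goblet member, foxa3, did not pass (log2 fold change 0.65, adjusted p = 0.530). In the smooth muscle list MYOCD, a cofactor that turns on smooth muscle genes, had 84.9, 120 and 132 normalized counts in aged guts, against 104, 347, 511 and 404 in young guts, a log2 fold change of -1.60 ± 0.54 (SE, adjusted p = 0.0335), and tagln had 10991, 12555 and 16838 normalized counts in aged guts, against 10046, 26671, 30744 and 34179 in young guts (adjusted p = 0.208). Young gut 1 stood within or below the aged guts for both, and the MYOCD call was lost without any of 5 libraries (adjusted p up to 0.161). The summed smooth muscle level was 957, 978 and 1027 CPM in aged guts, against 856, 2558, 2211 and 2494 CPM in young guts. Of the 3 skeletal muscle markers acta1b was lower, with 454, 556 and 393 normalized counts in aged guts, against 530, 1010, 1231 and 2313 in young guts, a log2 fold change of -1.44 ± 0.50 (SE, adjusted p = 0.0428), and eno3, an enolase of glycolysis, was higher at 1.695, while actn3b did not pass. The acta1b call was lost without any of 6 libraries (adjusted p up to 0.183). What part muscle in the dissected gut has in the lower genes was not tested. No call was made among the 4 fibroblast and matrix, 2 enteroendocrine, 1 endothelial, 2 liver, 2 B cell, 3 T cell, 3 macrophage and 1 neutrophil markers. The macrophage gene lgmn had 7313, 3565 and 9956 normalized counts in aged guts, against 18022, 12562, 4523 and 9407 in young guts (adjusted p = 0.487), dcn of the matrix 430, 873 and 300 normalized counts in aged guts, against 459, 935, 1713 and 1058 in young guts (adjusted p = 0.281) and csf3r of neutrophils 135, 193 and 308 normalized counts in aged guts, against 197, 198, 252 and 81.0 in young guts (adjusted p = 0.854). Every summed marker level overlapped between the age classes. 

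Lists of inflammation, damage and the cell cycle held no call in surface gut. Of all tested genes with a name 12.5% were called, and lists this small can be without a call at that share. All 4 inflammation members had positive fold changes that did not pass, and socs3a, a brake on cytokine signalling, had 92.3, 397 and 1542 normalized counts in aged guts, against 138, 87.1, 295 and 408 in young guts (adjusted p = 0.250), with gut 7 alone far above the young guts. Of 9 p53 targets none passed. The cell cycle inhibitor cdkn1a had 130, 413 and 339 normalized counts in aged guts, against 90.1, 70.9, 111 and 234 in young guts (adjusted p = 0.160), and ccng1, a p53 target, had 5081, 3530 and 5582 normalized counts in aged guts, against 10580, 7301, 7847 and 7959 in young guts (adjusted p = 0.0509) with no overlap between the age classes. The 2 cell cycle genes, the 1 damage response gene and the 8 tight junction genes did not pass, and named too few members to describe those processes. Of 6 clock genes per2 was higher and nfil3-5 lower, at 1.24 and -2.96, and both were lost without any of 5 libraries (adjusted p up to 0.158 and 0.161). Tissue was taken over a window of hours after lights on, and the labels give no time for a library.

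Genes without a symbol included very large changes. ENSAMXG00000005227 had 2453, 1294 and 6416 reads in the aged guts and 0, 2, 1 and 0 in the young guts, a ratio of 5114 with a counting interval of 1749 to 24802. ENSAMXG00000033547 had 705, 518 and 208 reads in the aged guts and 3, 0, 0 and 0 in the young guts, a ratio of 720 (246 to 3496). Both intervals pool the reads of each age class and leave out the spread between libraries, so that they are too narrow for a difference between fish. Both genes were all but without reads in every young gut. ENSAMXG00000035834 was lower, with 3.69, 12.6 and 4.18 normalized counts in aged guts, against 323, 182, 794 and 168 in young guts, a log2 fold change of -5.72 ± 0.73 (SE, adjusted p = 4.81e-12). ENSAMXG00000019911 was lower, with 102, 21.5 and 52.97 normalized counts in aged guts, against 1103, 860, 4559 and 2604 in young guts, a log2 fold change of -5.27 ± 0.69 (SE, adjusted p = 2.01e-11). The rule that named these 4 genes takes extreme fold changes among calls free of overlap, so that the distance between the age classes follows from the choice.

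The calls of surface gut were then read in other tissues of surface fish, which share no library with it. The labels do not say whether these tissues came from the same fish, so that an overlap is no independent repeat. Liver, where 5.19% of tested genes were called (3.11% higher and 2.08% lower in aged fish), held the most of them. Of 841 genes higher in aged gut with an adjusted p in liver, 185 (22.0%) were higher and 2 lower there, out of 11500 genes tested in both. Those 185 made up 51.8% of the genes called higher in liver. Of 380 genes lower in gut 65 (17.1%) were lower and 2 higher in liver, and the 65 made up 27.7% of the genes called lower there. In brain, where 6.14% were called (2.95% higher, 3.2% lower), 77 of 858 genes higher in gut were higher and 5 lower. In muscle, where 4.48% were called (2.22% higher, 2.26% lower), 60 of 850 were higher and 6 lower. In heart, where 2.84% were called (1.67% higher, 1.17% lower), 39 of 859 were higher and 3 lower. The edgeR test called 41 of the genes higher in gut in liver, 27 in brain, 1 in muscle and 4 in heart, in either direction. Of the 1402 calls 1020 were called in the same direction in none of the other 4 tissues, 287 in 1, 64 in 2 and 21 in 3. A gene without an adjusted p in a tissue counts here as not called there. The same counts over all genes tested were not made. Neither sharing nor specificity to gut can therefore be judged from these counts or from the 10 genes that follow.

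In all 5 tissues 10 genes were called in 1 direction, 8 higher and 2 lower in aged fish. niban1b was the 1 named gene among them, higher by 3.32 in gut, 3.64 in liver, 1.63 in brain, 1.49 in heart and 1.64 in muscle. Fitted log2 values of genes nearly without reads in 1 age class are no bound on the fold, and ENSAMXG00000005227 had 12.5, 9.79, 7.25, 10.07 and 8.38, and ENSAMXG00000033547 had 9.49, 6.90, 9.36, 8.18 and 6.69 in gut, liver, brain, heart and muscle. In 3 of the other 4 tissues ENSAMXG00000030103, chosen after its values were seen, was also lower: it was at 0 in all 3 aged guts, against 47.1, 47.0, 46.2 and 36.02 normalized counts in the young guts. In cavefish gut the fold changes of niban1b and of ENSAMXG00000005227 were -0.22 and -1.08, and neither was called.

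Guts of cavefish gave values from libraries that the surface comparison does not use. There 724 of 13033 genes (5.56%) were called with DESeq2, 403 higher (3.09%) and 321 lower (2.46%) in aged fish, and edgeR called none. At an unadjusted p under 0.05 DESeq2 called 2776 genes and edgeR 2141. Of 889 genes higher in aged surface gut 193 (21.7%) were also higher and 1 lower in aged cavefish gut, against 3.13% and 2.43% of all 12797 genes tested in both. These 193 were 48.3% of the 400 genes called higher in cavefish gut and tested in both. Of 417 genes lower in surface gut 36 (8.63%) were lower and 5 higher there, and 11.6% of the lower calls of cavefish gut were among them. The median fold change in cavefish gut was 0.61 for the genes higher and -0.34 for those lower in aged surface gut, and -0.02 over all genes tested. Mitochondrial genes were called there too: 6 of the 10 list members were higher in aged cavefish gut, with a median of 0.91. Among these was CYC1, at 1.23 ± 0.28 (SE, adjusted p = 0.00145). prdx1 was higher in both populations, at 2.75 ± 0.52 in cavefish (adjusted p = 6.03e-05), as were dbi (2.01), fabp2 (1.56) and gcnt3 (1.97). Of the family that holds fbxo32 and klhl24a, 1 gene, the muscle-enriched trim63a, was called in cavefish gut, lower at -3.18 (adjusted p = 0.0224). Of the skeletal muscle markers, actn3b (-3.87, adjusted p = 0.000175) and acta1b (-2.55, adjusted p = 0.0167) were lower there and eno3 (0.90, adjusted p = 0.0217) was higher. What part muscle in the dissected gut has in the trim63a value was not tested.

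The difference between the populations was tested directly as the interaction of age and population over all 15 gut libraries. DESeq2 called 218 of 14559 genes (1.50%), 0.742% with a greater and 0.756% with a smaller log2 fold change in surface fish, and edgeR called 14. The interaction shares its surface libraries with the comparison that chose the genes, so that values are given gene by gene. niban1b had log2 fold changes of 3.32 in surface gut and -0.22 in cavefish gut, a difference of 3.51 (adjusted p = 6.29e-07). In the same order acot19 had 2.77 and -0.29 (adjusted p = 0.00103 for the difference), gck 3.09 and -0.06 (0.011), scp2a 2.72 and 0.16 (0.00825), and ugdh 3.86 and 1.03 (0.011). Of the genes lower in surface gut, hspa8 had -0.75 and 0.19 (0.00143), ghrb -1.91 and 0.36 (0.0194), nsa2 -1.11 and -0.02 (0.0189), klhl24a -2.57 and 0.37 (0.0433) and grik1b -4.75 and -0.58 (0.026), all adjusted p of the DESeq2 interaction. None of the 9 respiratory members called in surface gut passed this test, with an adjusted p of 0.183 for atp5f1b and higher ones for the other 8. For fbxo32, at -4.33 and -0.61, the adjusted p was 0.0733. Without aged surface gut 7 the number of interaction calls was 489, and without aged cave gut 5 it was 419.

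**Figure D5:**
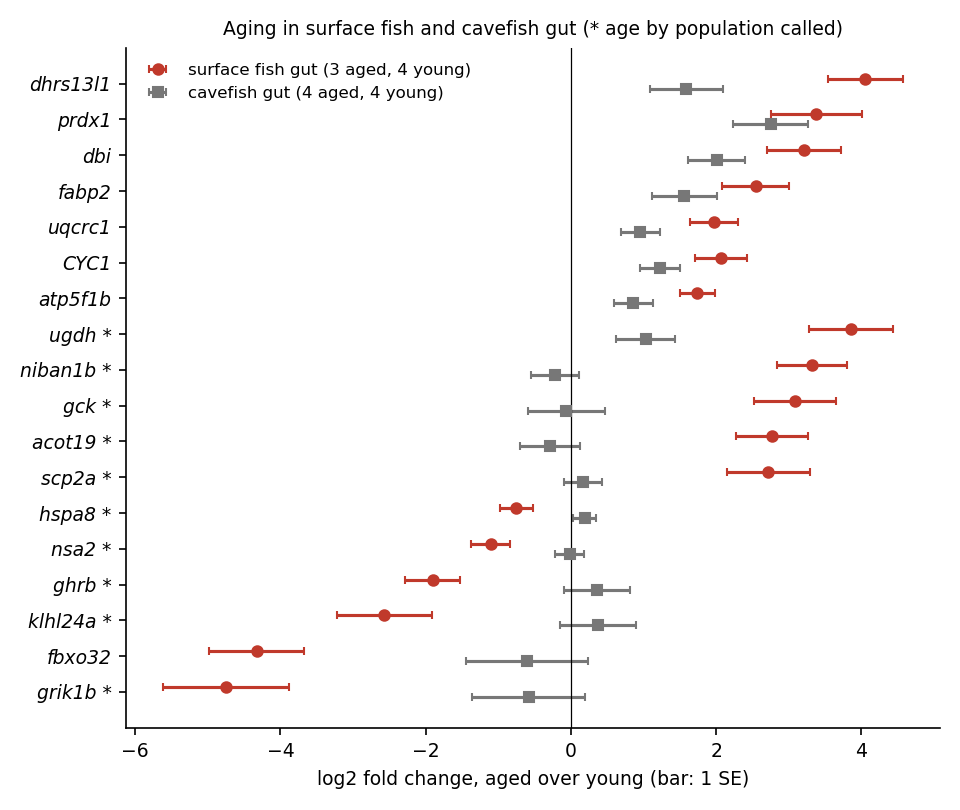
Log2 fold changes of aged over young, with 1 SE, are drawn for 18 genes in surface gut (red circles, 3 aged and 4 young libraries) and cavefish gut (grey squares, 4 aged and 4 young). Genes with an asterisk passed the interaction test: for niban1b, gck, acot19 and scp2a the cavefish values lie near 0, while prdx1, dbi, fabp2 and the respiratory genes are above 0 in both.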

How the data were processed

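RNA sequencing libraries of poly-A selected RNA were made from dissected gut of surface fish and cavefish and from 4 other tissues. The deposited files hold raw read counts per gene, which the authors made by mapping reads with STAR to the *A. mexicanus* genome version 2.0 with the Ensembl release 108 annotation. The STAR version, strand setting and treatment of reads with several positions are not given in the sources used here, so near copies, overlapping genes and antisense genes are uncertain.

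The 3 aged and 4 young surface guts were compared with DESeq2 1.42.0 in R 4.3.3 (size factors, Wald test, independent filtering), with a Benjamini-Hochberg adjusted p under 0.05 over all genes as a call. This follows the tool and the separate fits of the study. The quasi-likelihood test of edgeR 4.0.16, other scalings and filters, a fit of all 15 gut libraries and fits without 1 library were alternatives. Normalized counts are counts divided by size factors, and CPM values were computed from the deposited counts. Total counts ran from 9239781 to 20118504. Tissue classes used young cavefish libraries without heart replicate 1, which looked like liver in earlier results.

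Members and gene lists were chosen with earlier results of these data known. Genes named by rule were, among calls free of overlap whose mean reached 50 normalized counts, the 10 highest and 10 lowest fold changes with a symbol, the 5 most counted calls in each direction, up to 4 called members of each list (or its 2 most counted members where none was called), and the 2 highest and 2 lowest without a symbol. Other genes were named after their values were seen. Symbols came from a table of the UV experiment of the study. Its values and its fold changes were not used. The calculations were tested on simulated data. The values of 1 gene are not reported here.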

Additional observations from a re-analysis of the deposited data

Results flagged for a closer look

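In the young surface guts 1 of the 4 libraries stood apart from the others in 8 of 82 values examined, which are not independent of each other. The gap of that library to its nearest neighbour, as a share of the range of the young guts, was 0.903 for the summed adipocyte markers, where young gut 1 was highest, and 0.837 for the neutrophil marker, where young gut 4 was lowest. It was 0.919 for the share of counts on heart-enriched genes, with young gut 1 lowest. Among single genes it was 0.847 for klhl24a and 0.932 for slc43a2b, both highest in young gut 1, 0.913 for abca12, highest in young gut 4, and 0.891 for mttp, lowest in young gut 4. For ENSAMXG00000033547 it was 1, because young gut 1 alone held reads.

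The change with age differed between surface fish and cavefish for 15 of the genes named, by the DESeq2 interaction test over 15 gut libraries. Most named genes were chosen by their surface gut values, and the test uses the same surface libraries, so that many of them passing follows in part from the choice. Over all genes tested DESeq2 called 1.5%, and edgeR called 14 genes. The difference, surface minus cave on the log2 scale, was positive for niban1b (3.51), gck (3.12), acot19 (3.04), ugdh (2.82), scp2a (2.54) and 1 of the gstt1b genes (1.196). It was negative for grik1b (-4.19), klhl24a (-2.94), ghrb (-2.28), nsa2 (-1.11) and hspa8 (-0.96). Among genes without a symbol it was 13.6 for ENSAMXG00000005227, 9.37 for ENSAMXG00000033547, -6.25 for ENSAMXG00000035834 and -5.38 for ENSAMXG00000019911. ENSAMXG00000005227 and ENSAMXG00000033547 each had 3 reads in all young surface guts together, so that their fitted values are no bound on the difference. In cavefish gut ENSAMXG00000033547 had no adjusted p.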

How the results depend on the processing

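None of the 87 called genes carried through the alternatives changed direction. The alternative fits covered all genes, but gpx1b, txnrd3, bin2a and ENSAMXG00000030103 were not among the 87. In the edgeR test gpx1b and txnrd3 did not pass (adjusted p = 0.146 and 0.0715), and bin2a did (adjusted p = 0.0326). With edgeR the calls were 256, of them 210 higher and 46 lower, with 255 free of overlap, and 47 of the 87 named calls no longer passed. By abundance edgeR called 0.718% of genes with 10 to 100 counts, 2.29% with 100 to 1000, 6.52% with 1000 to 10000 and 2.19% above. By tissue it called 2.02% of gut-, 0.386% of liver-, 0.417% of muscle-, 4.03% of heart- and 1.17% of brain-enriched genes. It called 2.38% of broad, 1.36% of mixed and 6.19% of scarce genes. All are shares of the genes that passed its filter, which scarce genes can pass through the age class where they are high. At 16 times in place of 4 times, 3.16% of liver-enriched genes were called. A fit of all 15 gut libraries gave 2190 calls, 876 of them lower. In the other fits edgeR called 0 genes in cavefish gut, 304 in surface brain, 20 in heart, 72 in liver, 5 in muscle and 14 for the interaction. It called 14 of 39 list members, among them 4 of mitochondrial respiration, 3 of redox, 1 enterocyte gene and 0 of the fatty acid list. Leaving out 1 library at a time gave 692 to 1830 calls (478 to 1216 higher, 214 to 614 lower, 588 to 1172 free of overlap), 64.5% to 71.4% of them higher, with a median size of 1.72 to 1.94. The number lower was 309, 296 and 242 without young gut 2, 3 and 4. The same fits gave 26 to 40 list calls, of which 1 to 7 were enterocyte genes, 6 to 9 mitochondrial, 5 to 9 redox and 2 to 4 fatty acid genes. The enterocyte count was 1 without aged gut 6, 2 without young gut 4 and 3 without young gut 1. The interaction gave 142 (without young cave gut 3) to 489 calls. Chosen after seeing the data, fits without 1 library called 4.02% to 19.02% of muscle-enriched genes lower and 4.39% to 12.4% of broad genes higher. The causes of these shifts were not tested. No paired analysis was possible because aged and young guts share no replicate number. With 3 and 4 libraries, genes of few reads were rarely called.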
